A study of Sus scrofa with 21 samples.

Results

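Carnitine carries fatty acids across the mitochondrial membranes. Carnitine enters the cell through plasma membrane transporters, the acyl groups of long fatty acids are moved onto it at the outer mitochondrial membrane, the acylcarnitine is exchanged for free carnitine across the inner membrane, and the acyl group is handed back to coenzyme A inside, where beta oxidation shortens it by stages. In the male tract, carnitine and its short acyl esters are best known from the epididymal fluid and from sperm, which use them for energy and for the buffering of acetyl groups. The 10 genes described here are the members of that route listed by symbol: the transporters SLC22A5 and SLC22A16, the palmitoyltransferases CPT1A, CPT1B and CPT2, the inner membrane carrier SLC25A20, the short and medium chain carnitine acyltransferases CRAT and CROT, and the oxidation enzymes ACADM and HADHA. They were taken as the rows of the count files whose pig gene identifier carries 1 of these symbols, and 9 of the 10 were found among 25880 genes. SLC22A5 was not analysed here.

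The study sequenced RNA of testis tissue, taken after slaughter, from purebred Norwegian Landrace and Duroc boars that had served for artificial insemination, with 1 library per boar and 21 libraries in all. The boars had been chosen for the share of their ejaculated sperm that swam in the hyperactive manner, the vigorous, asymmetrical beating that sperm need in the oviduct. Contrast (i) sets 4 Landrace boars with high hyperactivity at ejaculation, called day 0 (L5 to L8), against 4 Landrace boars with low hyperactivity at day 0 (L1 to L4). Contrast (iii) sets 3 Landrace boars whose hyperactivity changed much during 96 h of semen storage at 18 °C (L7, L13 and L15), the boars with a high change, against 4 with a low change (L2, L9, L10 and L12), so that L2 and L7 are in both contrasts and the contrasts are not independent of each other. Contrast (ii) sets 5 Duroc boars labelled High (D1 to D5) against 3 labelled Low (D6, D7 and D9) at day 0. For 7 of these 8 Duroc boars the deposited label is the opposite of the group that the study's own listing of boars gives to the same name, but the names are not shared between the sources. The reads of D2 and D3 counted on genes alone exceeded all the reads listed for boars of those names, and each of the 8 Duroc libraries was closest in depth to a boar listed in the group that its label gives. The labels were therefore kept. The labels give no age for a library and no shared culture or litter, and each boar is 1 animal.

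The libraries held 41358671 to 125576407 reads counted on genes, with a median of 58530621. Values are given as CPM, the reads of a gene as a proportion of the size of its library, with that size scaled by TMM (a trimmed mean between libraries), on 1 scale over all 21 libraries. They are not divided by transcript length, so a value is compared between boars and never between genes. The tissue label was borne out by spermatid genes: TNP1, a transition protein of sperm chromatin, stood at 3363 to 8262 CPM and the protamine gene PRM1 at 465 to 2270 CPM, while the 4 measured genes of epididymal epithelium together did not exceed 0.189 CPM in any boar. AMH, listed as a Sertoli cell marker, was at 0 in every library. The library of boar L13 stood apart, with a median correlation of log2 CPM of 0.955 with the other libraries, against 0.970 to 0.984 for the rest. In whole testis, fewer cells of a type and less RNA per cell cannot be told apart.

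In Landrace at day 0, 2 of the 9 measured genes had a lower level in the boars with high hyperactivity. Both are carnitine acyltransferases, as are CROT, CPT1A and CPT2, which did not pass. CRAT, which swaps the acetyl group between coenzyme A and carnitine, was at 45.7% of the mean of the low boars, and CPT1B, the muscle type of the enzyme that loads palmitoyl groups at the outer membrane, was at 55.4%. A share of 2 in 9 is close to that of all genes: 2682 of 12979 tested genes, or 20.7%, passed the same threshold, with 15.8% lower and 4.82% higher in the high boars. The 9 genes therefore did not stand out by their number of calls, and the account below concerns each gene by itself.

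CRAT (ENSSSCG00000005671, Sscrofa11.1 chromosome 1, 269387430 to 269401334) stood in the low boars at 105 CPM in L1, 75.0 in L2, 107 in L3 and 113 in L4. In the high boars it stood at 67.6 CPM in L5, 32.9 in L6, 54.8 in L7 and 27.4 in L8. Every high boar lay under every low boar, and the spread within the high group was wide, with L8 and L6 well under L5. The means were 45.7 ± 18.8 CPM in the high and 99.9 ± 17.0 CPM in the low group (SD, n = 4 boars each). The log2 fold change, high over low, was -1.19 (standard error 0.27, 95% interval -1.78 to -0.61), with an adjusted p of 0.0209 by edgeR's quasi-likelihood test. The two-sided exact permutation test on log2 CPM gave p = 0.0286, the smallest that 4 boars against 4 allow.

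CPT1B (ENSSSCG00000022364, chromosome 5, 155552 to 163536) stood in the low boars at 17.9 CPM in L1, 12.4 in L2, 15.1 in L3 and 16.5 in L4, and in the high boars at 9.498 CPM in L5, 7.24 in L6, 10.8 in L7 and 6.82 in L8. The groups did not overlap here either, and L2, the lowest of the low boars for CRAT, was again the lowest of them. The log2 fold change was -0.92 (standard error 0.21, 95% interval -1.37 to -0.46, adjusted p = 0.0210 by edgeR's quasi-likelihood test), and the exact permutation p was 0.0286. Of the 9 genes, these 2 were the ones without overlap between the groups, where 31.4% of all tested genes had none. Both calls were lost in 3 of 17 alternatives: without L3 the adjusted p was 0.0504 for each, without L6 it was 0.0539 for CRAT and 0.0548 for CPT1B, and in 1 fit of all 21 libraries it was 0.0568 and 0.0655, while the log2 fold changes stayed between -1.48 and -1.01 for CRAT and between -1.21 and -0.81 for CPT1B over all alternatives.

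**Figure D1:**
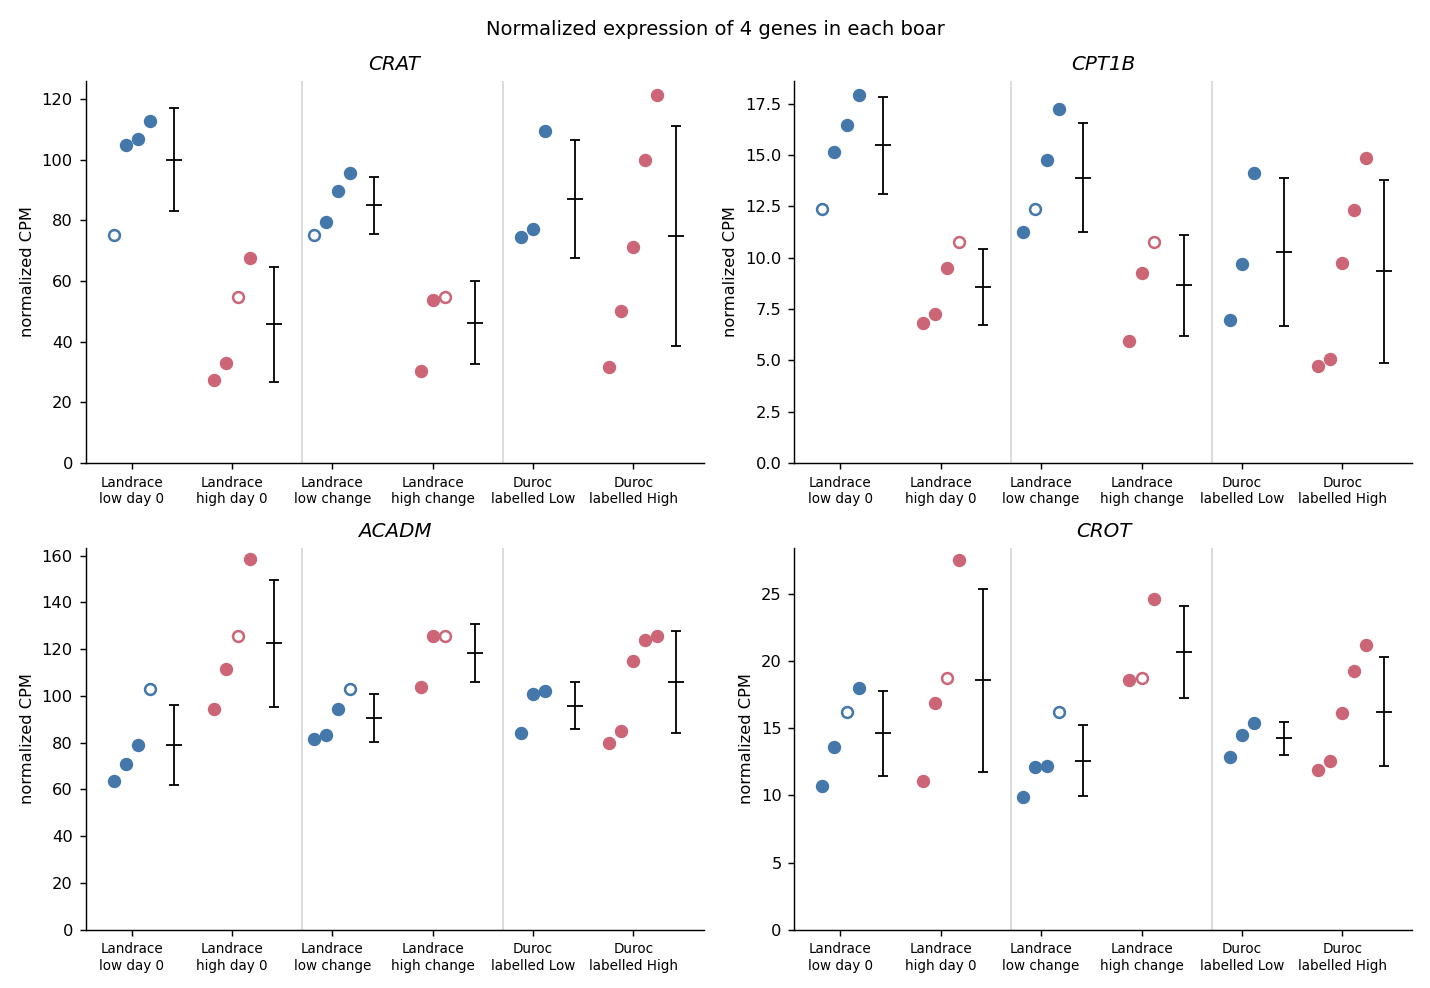
Normalized CPM (vertical axes, from 0) of CRAT, CPT1B, ACADM and CROT in each boar, by group (horizontal axes), with 1 point per boar in blue for low and red for high, open points for L2 and L7, which are in both Landrace contrasts, and the group mean ± SD as a black bar beside the points. For CRAT the high boars of both Landrace contrasts, at 27.4 to 67.6 CPM, lie under the low boars, at 75.0 to 113 CPM, while the 2 Duroc groups overlap.

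ACADM (ENSSSCG00000003776, chromosome 6, 137541481 to 137575544), the medium chain acyl-CoA dehydrogenase that takes the first step of each oxidation round, ran the other way in the same boars. It stood in the low boars at 79.1 CPM in L1, 103 in L2, 63.5 in L3 and 70.9 in L4, and in the high boars at 94.5 CPM in L5, 159 in L6, 126 in L7 and 112 in L8. The groups overlapped through L2, which lay above L5. The log2 fold change was 0.56 (standard error 0.19, 95% interval 0.16 to 0.96), and the adjusted p of 0.0504 (edgeR) missed the threshold narrowly. It passed in 8 of 17 alternatives, among them the likelihood ratio test with 0.0272 and DESeq2 with 0.0177, and over all of them it ran from 0.0177 to 0.174, so the call for ACADM depends on the method.

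The 6 remaining genes did not pass. CPT1A (ENSSSCG00000012880, chromosome 2, 4250642 to 4293914), the liver type of the outer membrane enzyme, had a log2 fold change of -0.41 (95% interval -0.95 to 0.13, adjusted p = 0.219), with 22.3 CPM in L8 and 55.6 CPM in L6 as the lowest and the highest of the high boars. CPT2 (ENSSSCG00000003851, chromosome 6, 159038129 to 159061327), which hands the acyl group back inside the mitochondrion, had -0.46 (interval -0.97 to 0.05, adjusted p = 0.155) on 172 to 471 reads per library over all 21, the fewest reads of the 9 genes. For the inner membrane carrier SLC25A20 the value was 0.06 (interval -0.34 to 0.47), for HADHA, the alpha subunit of the trifunctional protein of long chain oxidation, 0.01 (interval -0.35 to 0.37), for CROT, the peroxisomal octanoyltransferase, 0.27 (interval -0.30 to 0.84), and for SLC22A16 0.20 (interval -0.14 to 0.54), all by edgeR with adjusted p-values from 0.338 to 0.974. SLC25A20 (ENSSSCG00000011366) lies on chromosome 13 at 31523820 to 31553289, and HADHA (ENSSSCG00000008571) on chromosome 3 at 112753343 to 112797627. The median over the 9 genes was 0.01, beside 0.03 over all tested genes.

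Other features of the testis moved with the same groups. Of 8 elongating spermatid markers 4 were lower in the high boars by edgeR's test, namely GAPDHS (-0.90, adjusted p = 0.0209), PRM1 (-0.70, adjusted p = 0.0338), TNP2 (-0.73, adjusted p = 0.0324) and TSSK6 (-1.41, adjusted p = 0.0208), while TNP1 and AKAP4 had values of 0.21 and 0.31 that did not pass, and the summed level of the list was 8893 to 13493 CPM in the low and 11280 to 15115 CPM in the high boars. The 6 pachytene spermatocyte markers had positive values without passing, and their sum did not overlap, with 1076 to 1402 CPM in the low and 1508 to 2261 CPM in the high boars. Of 3 tested peritubular cell markers 2 were lower, MYH11 (-1.17) and DES (-1.50), and none of 5 spermatogonium, 7 Sertoli cell, 5 Leydig cell, 2 endothelial and 3 macrophage markers passed (edgeR). The TMM factors of the libraries also lay apart, at 1.03 to 1.18 in the low and 0.822 to 0.986 in the high boars. The part of these in the results for CRAT, CPT1B and ACADM was not tested.

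In contrast (iii), on the change in hyperactivity during storage, none of the 9 genes passed, and neither did any of 12824 tested genes, 0% of them, by edgeR's quasi-likelihood test. At an unadjusted p under 0.05, 4 of the 9 stood out, where 19.8% of all tested genes did, and the same 4 had groups that did not overlap, where 16.4% of all genes had none. They were CRAT, CROT, CPT1B and ACADM. As L2 and L7 are in both contrasts, the values are set beside those of day 0 without being counted as a second result.

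CRAT stood in the boars with a low change at 75.0 CPM in L2, 89.5 in L9, 95.7 in L10 and 79.4 in L12, and in those with a high change at 54.8 CPM in L7, 30.4 in L13 and 53.7 in L15. The log2 fold change was -0.89 (standard error 0.21, 95% interval -1.35 to -0.42), with an adjusted p of 0.240 by edgeR and an exact permutation p of 0.0286, the smallest that 3 boars against 4 allow. It was the gene with rank 41 of 12824 by p, and it passed in the likelihood ratio test (adjusted p = 0.0386) and in DESeq2 (adjusted p = 0.0198), the 2 alternatives of 16 in which it did. Without L13, the library that stood apart, the log2 fold change was -0.65 and the adjusted p 0.517.

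CROT (ENSSSCG00000015391, chromosome 9, 93263606 to 93308150), which prepares shortened acyl groups for leaving the peroxisome, stood at 16.2 CPM in L2, 12.2 in L9, 9.85 in L10 and 12.1 in L12 against 18.8 in L7, 24.6 in L13 and 18.6 in L15. Its log2 fold change was 0.70 (standard error 0.21, 95% interval 0.23 to 1.17, adjusted p = 0.240 by edgeR, exact permutation p = 0.0571). Every boar with a high change lay above every boar with a low one, although at day 0 the groups had overlapped, with L5 at 11.09 CPM and L6 at 27.6 CPM on the high side. CPT1B ran from 11.3 to 17.2 CPM in the low and from 5.96 to 10.8 CPM in the high boars, with a fitted value of -0.70 on the log2 scale (standard error 0.25, adjusted p = 0.240). ACADM ran from 81.6 to 103 CPM in the low and from 104 to 126 CPM in the high boars, with a value of 0.37 (standard error 0.14, adjusted p = 0.240), and its nearest boars, L2 and L15, differed by less than 1 CPM.

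For the 5 genes left, the log2 fold changes ran from -0.36 for SLC22A16 (interval -0.79 to 0.06) to 0.19 for SLC25A20 (interval -0.33 to 0.71), with adjusted p-values from 0.296 to 0.991 (edgeR). SLC22A16 had been higher on average in the high boars at day 0 and was lower on average here, with neither value past the threshold. In this contrast the 8 elongating spermatid markers all had negative values and none passed, with summed levels of 10500 to 14404 CPM in the low and 6247 to 11965 CPM in the high boars. The summed Sertoli cell markers overlapped, at 201 to 236 CPM in the low and 209 to 499 CPM in the high boars. The share of reads from mitochondrially encoded genes was 2.003% to 4.02% in the high and 1.10% to 1.97% in the low boars. Their part in the values was not tested.

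The 5 boars of contrast (iii) that took no part in contrast (i) can be read by themselves. CRAT stood at 79.4 to 95.7 CPM in the 3 low boars and at 53.7 and 30.4 CPM in the high boars L15 and L13, CPT1B at 11.3 to 17.2 against 9.26 and 5.96 CPM, CROT at 9.85 to 12.2 against 18.6 and 24.6 CPM, and ACADM at 81.6 to 94.6 against 104 and 126 CPM. The fit on these 5 boars gave log2 fold changes of -1.06 for CRAT, -0.92 for CPT1B and 0.42 for ACADM, with adjusted p-values of 0.323, 0.324 and 0.327 by edgeR's test. Over all 13 Landrace boars, CRAT lay at 75.0 to 113 CPM in the 7 labelled low in either contrast and at 27.4 to 67.6 CPM in the 6 labelled high. CPT1B lay at 11.3 to 17.9 and at 5.96 to 10.8 CPM. These 2 of the 9 genes had no overlap over the 13 boars, where 5.97% of 13126 genes had none, and this is a description of boars in which the day 0 and the storage labels are pooled.

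**Figure D2:**
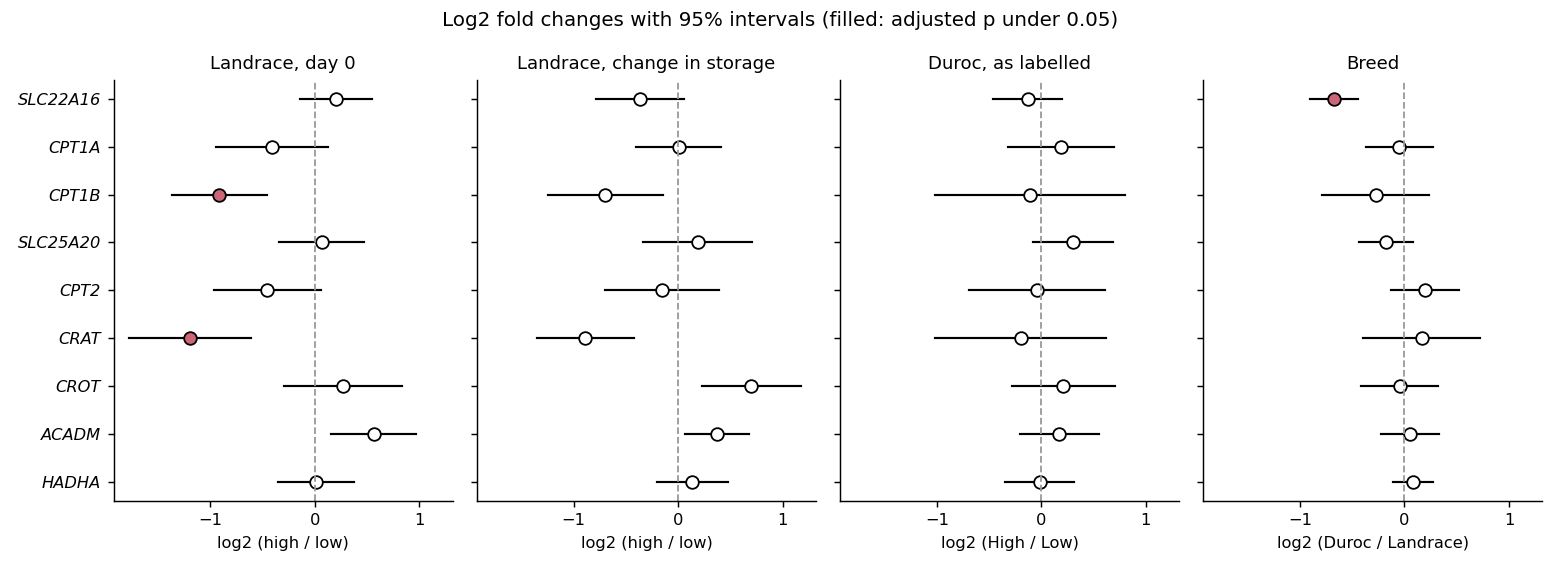
Log2 fold change (horizontal axes) of the 9 measured genes (vertical axis, ordered by their place in the route) in contrast (i), contrast (iii), contrast (ii) and between the breeds, with 95% intervals as lines and filled points where the adjusted p was under 0.05. CRAT and CPT1B are filled at day 0 in Landrace, at -1.19 and -0.92, SLC22A16 is filled between the breeds, at -0.68, and no gene is filled in the other panels.

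In Duroc, as labelled, none of the 9 genes passed, and neither did any of 13043 tested genes, 0% of them (edgeR, smallest adjusted p over all genes 0.999985). None of the 9 had an unadjusted p under 0.05, where 158 genes or 1.21% did, and none had groups without overlap, where 1.3% of genes had none. DESeq2 and the likelihood ratio test called none of the 9 either. CRAT stood at 71.3 CPM in D1, 31.8 in D2, 49.96 in D3, 121 in D4 and 99.9 in D5, all labelled High, and at 74.6 CPM in D6, 77.2 in D7 and 110 in D9, labelled Low. The boars labelled High held both the lowest and the highest Duroc values, and the 3 labelled Low lay among them. The log2 fold change of -0.20 had an interval of -1.02 to 0.62, which leaves room for a sizeable difference either way. CPT1B was spread alike, from 4.71 CPM in D2 and 5.07 in D3 to 14.9 in D4, with D6, D7 and D9 at 9.68, 6.97 and 14.1 CPM. D2, the lowest Duroc boar for CRAT and CPT1B, also had the lowest CPT1A (25.9 CPM), CPT2 (3.10 CPM) and HADHA (116 CPM) among the Duroc boars. Its library had the lowest median correlation with the other libraries (0.970) and the lowest TMM factor (0.851) of the Duroc libraries. The part of this in its values was not tested.

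HADHA had a log2 fold change of -0.01, with an interval of -0.35 to 0.32, and SLC22A16 one of -0.13, with an interval of -0.46 to 0.20. SLC25A20 had the largest value of the 9, 0.30 (interval -0.08 to 0.69), with 22.9 to 30.0 CPM under the label High and 18.2 to 25.6 CPM under Low. Whether the day 0 contrasts differed between the breeds was tested with the 16 day 0 boars in 1 fit. None of the 9 genes passed, and no gene of 12920 did (edgeR's quasi-likelihood test, 1946 genes at an unadjusted p under 0.05, and 3 genes called by the likelihood ratio test). For CRAT the Duroc contrast exceeded the Landrace contrast by 0.98 on the log2 scale (standard error 0.52, adjusted p = 0.339), and for CPT1B by 0.79 (standard error 0.50, adjusted p = 0.390). The effects at day 0 in Landrace are therefore not shown to be absent from Duroc.

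Between the breeds, 1 of the 9 genes passed. SLC22A16, the organic cation and carnitine transporter known from testis and epididymis, was lower in Duroc, at 61.8% of the Landrace mean, with 45.9 ± 6.21 CPM (SD, n = 8 boars) against 74.3 ± 14.9 CPM (SD, n = 13). In all, 378 of 13126 tested genes, or 2.88%, passed, 1.53% lower and 1.35% higher in Duroc, so that 1 call in 9 stands beside a small background. SLC22A16 had rank 56 by p among them.

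SLC22A16 (ENSSSCG00000004399, chromosome 1, 76423386 to 76468267) stood in the Duroc boars at 39.1 CPM in D1, 50.9 in D2, 47.9 in D3, 41.2 in D4, 40.5 in D5, 57.4 in D6, 47.3 in D7 and 42.7 in D9. In the 13 Landrace boars it ran from 47.5 CPM in L13 through a median of 75.0 to 98.7 CPM in L8. The next lowest Landrace boars, L3 at 52.1 and L2 at 60.6 CPM, show how far the breeds overlapped: L13 and L3 lay within the Duroc range, and the other 11 Landrace boars lay above all Duroc boars. None of the 9 genes was free of overlap between the breeds, where 0.282% of all genes were. The log2 fold change, Duroc over Landrace, was -0.68 (standard error 0.11, 95% interval -0.91 to -0.45, adjusted p = 6.43e-04 by edgeR's quasi-likelihood test), and the two-sided exact permutation p over all assignments of the boars was 8.85e-05.

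The value kept its size under every alternative, from -0.73 to -0.61. It passed in 30 of 32, among them each fit that left out 1 boar and the fit of the 16 day 0 boars with high or low as a covariate (adjusted p = 0.00328). It did not pass among the low boars only, 3 Duroc and 7 Landrace (-0.61, adjusted p = 0.0958), or among the high boars only, 5 Duroc and 6 Landrace (-0.67, adjusted p = 0.0951). Of the marker lists, 1 spermatogonium marker was lower in Duroc, KIT (-1.40, adjusted p = 6.78e-04), and 1 Sertoli cell marker higher, GATA4 (0.74, adjusted p = 0.00692). The summed elongating spermatid markers were 10619 to 12688 CPM in Duroc, within the 6247 to 15115 CPM of Landrace. The part of these in the difference was not tested, and the breed and whatever else set the boars of the breeds apart cannot be told apart.

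**Figure D3:**
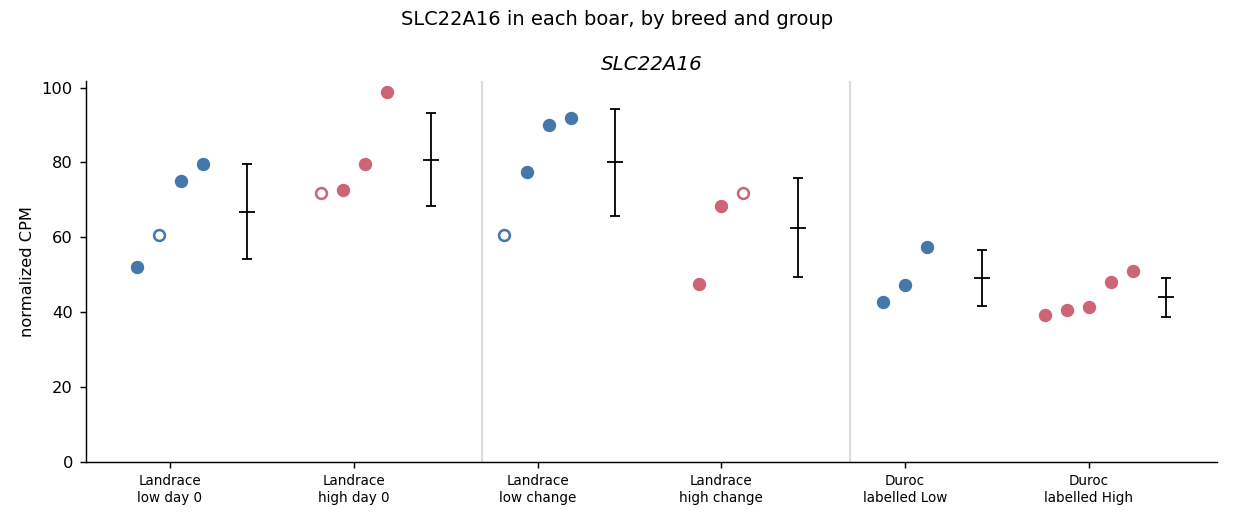
Normalized CPM of SLC22A16 (vertical axis, from 0) in each boar, by breed and group (horizontal axis), with 1 point per boar in blue for low and red for high, open points for L2 and L7, which are in both Landrace contrasts, and the group mean ± SD as a black bar. The Duroc boars sit at 39.1 to 57.4 CPM under both labels, and the Landrace groups reach from 47.5 to 98.7 CPM.

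The other 8 genes did not pass between the breeds, with log2 fold changes from -0.28 for CPT1B (interval -0.79 to 0.24) to 0.19 for CPT2 (interval -0.13 to 0.52) and adjusted p-values from 0.750 to 0.998 (edgeR). HADHA had the narrowest interval of the 9, at 0.08 (interval -0.11 to 0.27). For CRAT the breeds spanned nearly the same range, 31.8 to 121 CPM in Duroc and 27.4 to 113 CPM in Landrace. The log2 fold change was 0.16 (interval -0.40 to 0.73). It was 0.83 among the high boars only (adjusted p = 0.379, edgeR) and -0.11 among the low boars only.

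The genes differed in how far they varied from boar to boar. Over the 21 boars the coefficient of variation was 39.6% for CRAT, with a 4.43-fold range from L8 to D4, and 36.9% for CPT1B, with a 3.81-fold range from D2 to L1. It was 29.3% for SLC22A16, 29.2% for CROT, 22.8% for ACADM, 21.4% for CPT1A and 20.2% for SLC25A20 as for CPT2. HADHA was the steadiest of the 9, at 13.3%, from 103 CPM in L9 to 172 CPM in L6. CRAT and CPT1B showed the widest spread within Duroc too, at 37.8% and 40.3%, although no contrast passed there.

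Within the breeds, CRAT and CPT1B moved together. With log2 CPM centred on each breed's mean, Pearson's r over the 21 libraries was 0.90 (Spearman's rho 0.85), and it was 0.93 over the 13 Landrace and 0.88 over the 8 Duroc boars. Without L8 and D2, the boars farthest from the middle for CRAT, r was 0.87. ACADM ran against CRAT, with r = -0.80 (rho -0.81), at -0.85 in Landrace and -0.67 in Duroc. CROT was most like ACADM, with r = 0.72, which was 0.57 without L6 and L13. CPT1A and CPT2 were most like each other, with r = 0.72, and SLC22A16 had no close partner, its highest r being 0.12 with ACADM and its lowest -0.62 with CPT1A. These values are descriptions with no test, and the points share their libraries, scaling factors and, in Landrace, the groups.

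**Figure D4:**
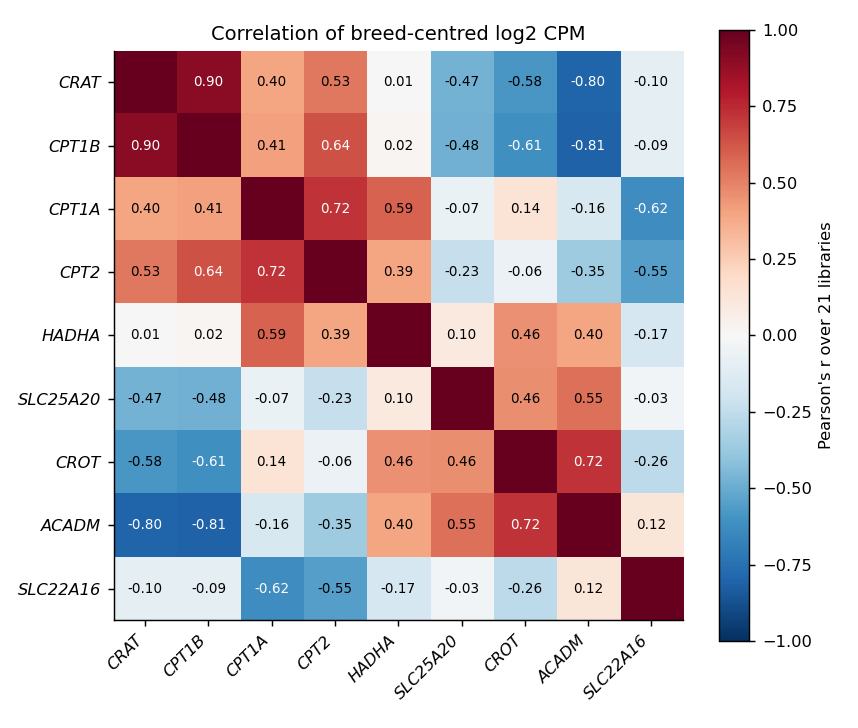
Pearson's r of log2 CPM, centred within each breed, between the 9 measured genes (both axes) over 21 libraries, on a colour scale from -1 to 1. CRAT and CPT1B are at 0.90, CRAT and ACADM at -0.80, and CROT and ACADM at 0.72.

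Over 13104 tested genes with reads in all 21 libraries, the 5 named genes whose profile was most like that of CRAT were HROB (r = 0.96), a factor of homologous recombination, UBE2S (r = 0.95), a ubiquitin conjugating enzyme of the anaphase promoting complex, SEPTIN5 (r = 0.95), CDC20 (r = 0.95), an activator of the same complex, and GET3 (r = 0.95), which targets tail-anchored membrane proteins. CPT1B at 0.90 was thus less like CRAT than genes outside carnitine metabolism were. A further measure was the number of CPT1B reads per 100 CPT1A reads, which is not corrected for length. It was 22.2 to 44.7 in the low and 13.02 to 30.6 in the high boars at day 0, so the balance of the 2 outer membrane enzymes overlapped between the groups.

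Among the other genes of carnitine and fatty acid metabolism, 53 of 58 listed were in the files and 47 passed the filter on low counts at day 0 in Landrace. Of these 9 passed the test, or 19.1%, close to the 20.7% of all genes, with 7 lower and 2 higher in the high boars. The 7 include ESRRA, which the filter admitted through the low boars alone. The regulators held 5 of the 9 calls among 9 tested, and no test compared the roles. PPARA, PPARGC1A and PRKAA1 of this role had positive values, 0.06, 0.56 and 0.27, that did not pass. PPARD, a nuclear receptor that switches on fatty acid use, was at 4.66 to 6.10 CPM in the low and 1.18 to 2.80 CPM in the high boars (log2 fold change -1.30, standard error 0.29, adjusted p = 0.0209). ESRRA, the estrogen related receptor that drives mitochondrial genes, was at 1.08 to 1.77 against 0.476 to 0.775 CPM (-1.18, adjusted p = 0.0282). It met the filter of 1 CPM in 4 libraries through the low boars alone, so its admission depended on the difference itself. In contrast (iii) it did not meet the filter. ACACB, whose product malonyl-CoA inhibits the outer membrane palmitoyltransferases, was at 133 to 181 against 83.2 to 129 CPM (-0.72, adjusted p = 0.0219), and MLYCD, which breaks malonyl-CoA down, was at 4.18 to 5.48 against 1.42 to 3.33 CPM (-0.99, adjusted p = 0.0393). PRKAA2, a catalytic subunit of AMP-activated kinase, was higher, at 36.3 to 48.8 against 23.8 to 31.4 CPM (0.54, adjusted p = 0.0274), all by edgeR. ACACA, the other gene whose product makes malonyl-CoA, had a value of 0.03 (interval -0.32 to 0.39) that did not pass.

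Of 14 mitochondrial oxidation genes tested besides ACADM and HADHA, 2 were lower and none higher. ACADVL, the very long chain counterpart of ACADM, was at 15.3 to 26.7 CPM in the low and 8.43 to 14.4 CPM in the high boars (-0.92, standard error 0.23, adjusted p = 0.0233 by edgeR), while the value of ACADM was positive. ETFB, the beta subunit of the electron transfer flavoprotein that takes electrons from these dehydrogenases, was at 4.76 to 5.40 against 2.38 to 4.10 CPM (-0.79, adjusted p = 0.0405). HADHB, the partner subunit of HADHA, had a value of 0.26 that did not pass. Of 13 peroxisomal genes 1 was lower, DECR2 (-0.90, adjusted p = 0.0337), a reductase of unsaturated acyl chains, and of 7 activation genes 1 was higher, ACSL4 (0.66, adjusted p = 0.0470), which activates polyunsaturated fatty acids. None of 2 carnitine synthesis genes and none of 2 uptake and binding genes tested passed, and SLC22A4 and CPT1C, the other transporter and palmitoyltransferase, had too few reads to be tested. The median over the 47 genes was 0.08, beside 0.03 over all genes. The 9 calls were lost without L3 or without L6, and came to 3 without L1, 3 without L4, 4 without L8 and 15 without L5.

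**Figure D5:**
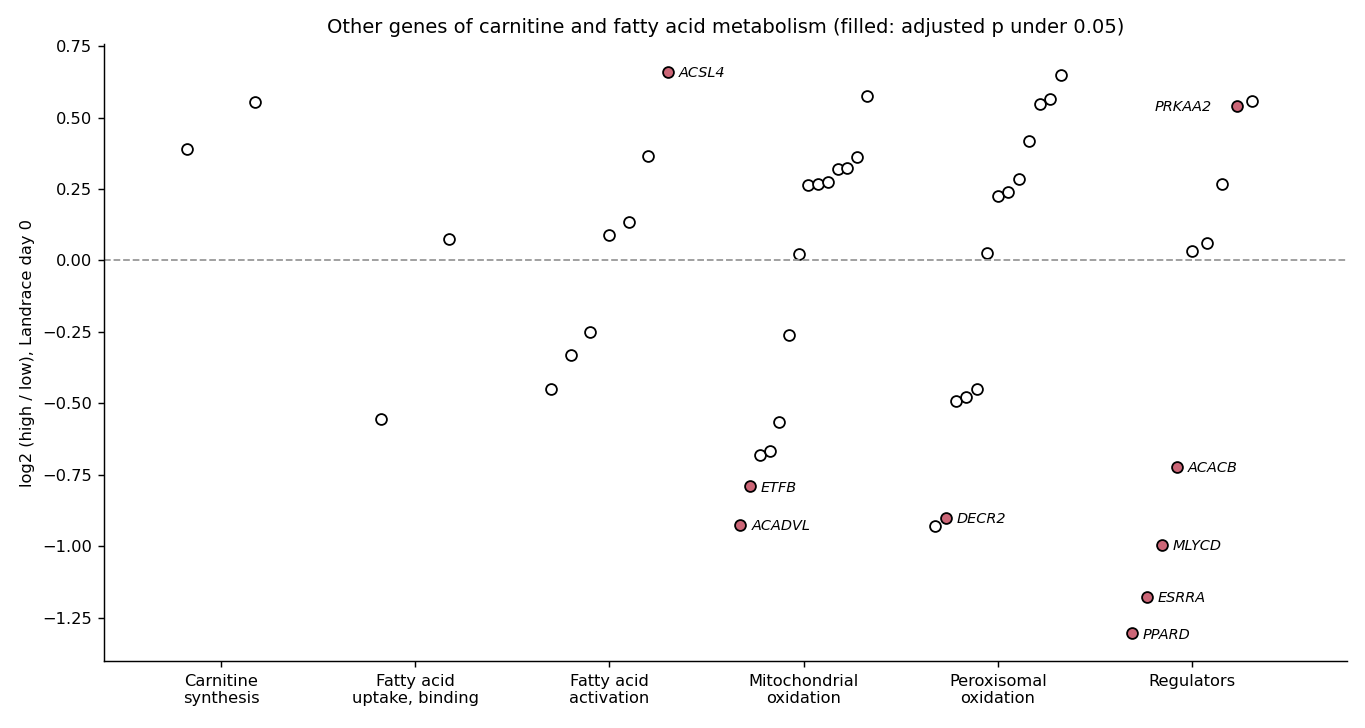
Log2 fold change (vertical axis, high over low) at day 0 in Landrace of 47 other genes of carnitine and fatty acid metabolism, 1 point per gene, by role (horizontal axis), with filled and named points where the adjusted p was under 0.05. Of the 9 filled points 7 lie under 0, from -0.72 for ACACB to -1.30 for PPARD, and 2 above, PRKAA2 at 0.54 and ACSL4 at 0.66. The 7 include ESRRA, which the filter on low counts admitted through the low boars alone.

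In contrast (iii) none of 46 tested genes of this list passed (edgeR), 11 of them had an unadjusted p under 0.05, where 19.8% of all tested genes did, and the median was 0.24, beside 0.00 over all genes. The 3 with the smallest p were PHYH, the first enzyme of alpha oxidation in the peroxisome, at 8.49 to 14.9 CPM in the low and 24.1 to 31.3 CPM in the high boars (1.09, standard error 0.22, adjusted p = 0.240), HSD17B4, the peroxisomal bifunctional enzyme, at 314 to 450 against 496 to 546 CPM (0.49, adjusted p = 0.240), and DECR1, the mitochondrial counterpart of DECR2 (0.82, adjusted p = 0.240). For PHYH and HSD17B4, as for CROT, every boar with a high change lay above every boar with a low one, where 16.4% of all tested genes had no overlap. This was not particular to peroxisomal genes, as ETFA and PRKAA2 had none either. Of 13 peroxisomal genes tested 9 had positive values, while others, such as ACOT8 (-0.60), DECR2 (-0.34) and ACAA1 (-0.15), had negative ones. In Duroc, as labelled, none of 47 passed and none had an unadjusted p under 0.05 (edgeR), and the 3 with the smallest p, PHYH, FABP3 and TMLHE, had values of 0.61, 0.42 and 0.47 with an adjusted p of 0.999985 each.

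Between the breeds 3 of 47 passed, or 6.38%, where 2.88% of all tested genes did. The 3 include PPARA, which the filter admitted through Landrace. PPARA is a nuclear receptor that switches on fatty acid oxidation genes, CPT1A among them. It was lower in Duroc, at 0.529 to 2.14 CPM against 1.21 to 4.19 CPM in Landrace (-1.19, standard error 0.28, adjusted p = 0.0161 by edgeR). Every Landrace boar reached the 1 CPM of the filter, while the Duroc median was 0.937 CPM. CPT1A itself had a value of -0.05 between the breeds and did not pass. The activating enzyme ACSL6 was lower in Duroc, at 199 to 244 against 212 to 335 CPM (-0.33, adjusted p = 0.0387), and ACSL5, of the same family, was higher, at 98.6 to 229 against 93.8 to 151 CPM (0.43, adjusted p = 0.0477). The ranges overlapped for each of the 3, and with 1 Duroc or Landrace boar left out between 1 and 3 of these list genes passed.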

How the data were processed

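Per the methods of the study, the authors trimmed single reads with Trimmomatic 0.36, aligned them to the pig genome with STAR, and counted them per Ensembl gene with HTSeq in reverse-stranded mode. The deposited files hold these raw read counts, with 1 table per boar. Rows for reads given to no gene (29.4% to 39.0% of reads) were left out. Identifiers were named from a gene table and positions taken by symbol from the RefSeq annotation of Sscrofa11.1. Each contrast was fitted on its own boars, and the breeds on all 21, with edgeR 4.0.16 (quasi-likelihood test, TMM) in R 4.3.3, keeping genes that reached 1 CPM in 4 or more libraries (8 or more for the breeds). P-values were adjusted by Benjamini and Hochberg over all tested genes, with a threshold of 0.05. They measure the spread between boars chosen as extremes. Single genes were also given exact permutation tests. The code was tested on simulated data. Replicates were compared in pairs, and none of 34 pairs agreed within sampling noise.

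The members and gene lists were chosen with earlier results of these data known. All 9 measured members are named, and of the other pathway genes those called, up to 10, or the 3 with the smallest p where none was. HADHB and ACACA were named after their values were seen. Alternatives were another normalization (RLE), other filters, the likelihood ratio test, DESeq2 1.42.0, a robust fit, mitochondrially encoded genes left out, 1 boar left out in turn, and other sets of boars. The fits that left out 1 boar in the breed comparison, and 2 alternatives of the test of a difference between breeds, were chosen after seeing the data.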

Additional observations from a re-analysis of the deposited data

How the results depend on the processing

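The values of CRAT and CPT1B in contrast (i) kept their direction under all 17 alternatives each, and that of SLC22A16 between the breeds under all 32. In contrast (i), 2 of the 9 genes passed, and 0 to 3 did with 1 boar left out, while of the other pathway genes 9 passed and 0 to 15 did. With all 21 libraries in 1 fit, 0 of the 9 and 0 of the other genes passed, and DESeq2 called 16 of the other genes. Over all genes, where 2682 passed, the count was 1 without L3, 1 without L6, 3764 without L5 and 1 in the fit of all 21 libraries. In contrast (iii), where none passed, the likelihood ratio test and DESeq2 each called 1 of the 9, CRAT, and 1 other pathway gene, and over all genes they called 64 and 116. Between the breeds, 0 of the 9 passed among the low boars only and 0 among the high boars only, and the 3 calls among other pathway genes became 0 in both, 0 with at least 1 CPM in every library, 0 in the fit of 16 day 0 boars, and 1 to 3 with 1 boar left out. The cause of these changes was not tested.

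Values near 0 changed sign. With at least 1 CPM in every library, log2 fold changes were -0.019 for SLC25A20 and -0.073 for HADHA in contrast (i) and -0.0021 for CPT1A in contrast (iii), and without L2 and L7 that of HADHA in contrast (i) was -0.048. Between the breeds they were -0.11 for CRAT and 0.11 for CROT among the low boars only, and 0.83 for CRAT, with its sign kept, 0.13 for CPT1A, 0.26 for CPT1B and -0.12 for ACADM among the high boars only. With 1 boar left out, values ran in contrast (i) from -0.075 to 0.17 for SLC25A20 and from -0.10 to 0.15 for HADHA. In contrast (ii) they ran from -0.43 to 0.062 for CRAT, from -0.34 to 0.26 for CPT1B, from -0.17 to 0.21 for CPT2 and from -0.074 to 0.049 for HADHA. In contrast (iii) they ran from -0.10 to 0.15 for CPT1A and from -0.0029 to 0.35 for SLC25A20, and between the breeds from -0.13 to 0.038 for CROT and from -0.11 to 0.028 for CPT1A. No paired analysis was possible because the groups of a contrast hold different boars and the labels link none of them.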
